A study of Mus musculus with 6 samples.

Results

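The genes described here are 4 Notch receptors (Notch1, Notch2, Notch3 and Notch4), 4 of their ligands (Dll1, Dll4, Jag1 and Jag2) and 2 target genes (Hes1 and Hey1). They were taken by symbol from the count table of a mouse lung study. The symbols follow from roles in the pathway, but the set was proposed with earlier results of these data known. All 10 symbols were found among the 29703 gene symbols of the table, and all 10 were among the 17686 genes that passed the filter on low counts and were tested. The study measured bulk RNA of lungs from balb/c mice by sequencing. One group of 3 libraries was taken on day 0 (D0) and the other group of 3 on day 14 (D14) after K7M2 cells had been implanted orthotopically; K7M2 is a murine osteosarcoma line known for lung metastasis. Both groups therefore carry the label of implanted cells, and no genotype or drug differs between them. A D14 group without implanted cells was not analysed here, so the tumour, the procedure, the age of the animals and the day of collection cannot be told apart. The labels number the libraries as biological replicates, and the series design speaks of independent experiments, but they do not say whether a library came from 1 mouse. The p-values therefore measure the spread between these libraries.

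Notch receptors are single-pass membrane proteins that are switched on by ligands of the Delta and Jagged families on a neighbouring cell. Ligand binding exposes the receptor to cleavage by ADAM proteases and then by gamma-secretase, and the freed intracellular domain enters the nucleus, where it binds the DNA-binding protein RBPJ and a Mastermind co-activator and turns on genes of the Hes and Hey families. In the lung, Notch signalling is known for the choice between secretory and ciliated airway cells, for arterial identity and tip cell selection in vessels, and for the maintenance of mural cells.

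The libraries held 14878101 to 17385006 counts. Levels are given as CPM, counts scaled to library size, corrected by TMM factors. The lung label was checked against markers: the alveolar type 2 list summed to 20896 to 46807 CPM and the club cell list to 9030 to 25388 CPM over the 6 libraries, while the extraction text of the labels names bone marrow-derived macrophages. Of the osteoblast lineage markers, which K7M2 cells could bring, 6 of 7 have a line in the table, with sums of 71.4 to 104 CPM at D0 and 65.3 to 84.4 CPM at D14. Nearly all of these sums came from Spp1 (27.0 to 77.6 CPM), Alpl (18.5 to 34.2 CPM) and Runx2 (7.09 to 8.57 CPM). The sums therefore say little of the other markers. Ibsp has no line, Bglap and Sp7 had at most 2 counts in any library, and Bglap2 at most 8. D0 replicate 3 stood apart, with 82.85 on the first principal component against −41.48 to 15.71 elsewhere. The longest transcripts (4795 bases or more) relative to the shortest (1425 bases or fewer) stood at −0.79 on the log2 scale in that library, against −0.040 to 0.39 in the other libraries. Of the 10 Notch genes, 6 belong to these longest transcripts, and all 10 were lower in D0 replicate 3 than the mean of the other D0 libraries, by 0.12 (Jag1) to 1.49 (Notch3) on the log2 scale. For each of the 10 genes the fold change without this library is also given.

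None of the 10 genes differed between days past an adjusted p of 0.05 in edgeR's quasi-likelihood test with Benjamini-Hochberg adjustment over all tested genes. The background was low, since 6 of 17686 genes, 0.0339%, passed. That number was 3, 1 and 22 without D0 replicate 1, 2 or 3 and 0 without any one of the D14 libraries. At an unadjusted p under 0.05 stood 1 of the 10, Dll1, against 12.6% of all tested genes. DESeq2 called 1 of the 10, also Dll1, against 1.24% of all genes, and limma-voom called 0. The median log2 fold change of the 10 genes, D14 minus D0, was 0.30 beside −0.03 over all tested genes, and 7 of the 10 were above 0, against 46.9% of all genes. That median ran from 0.12 without D0 replicate 3 to 0.58 without D0 replicate 1.

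**Figure D1:**
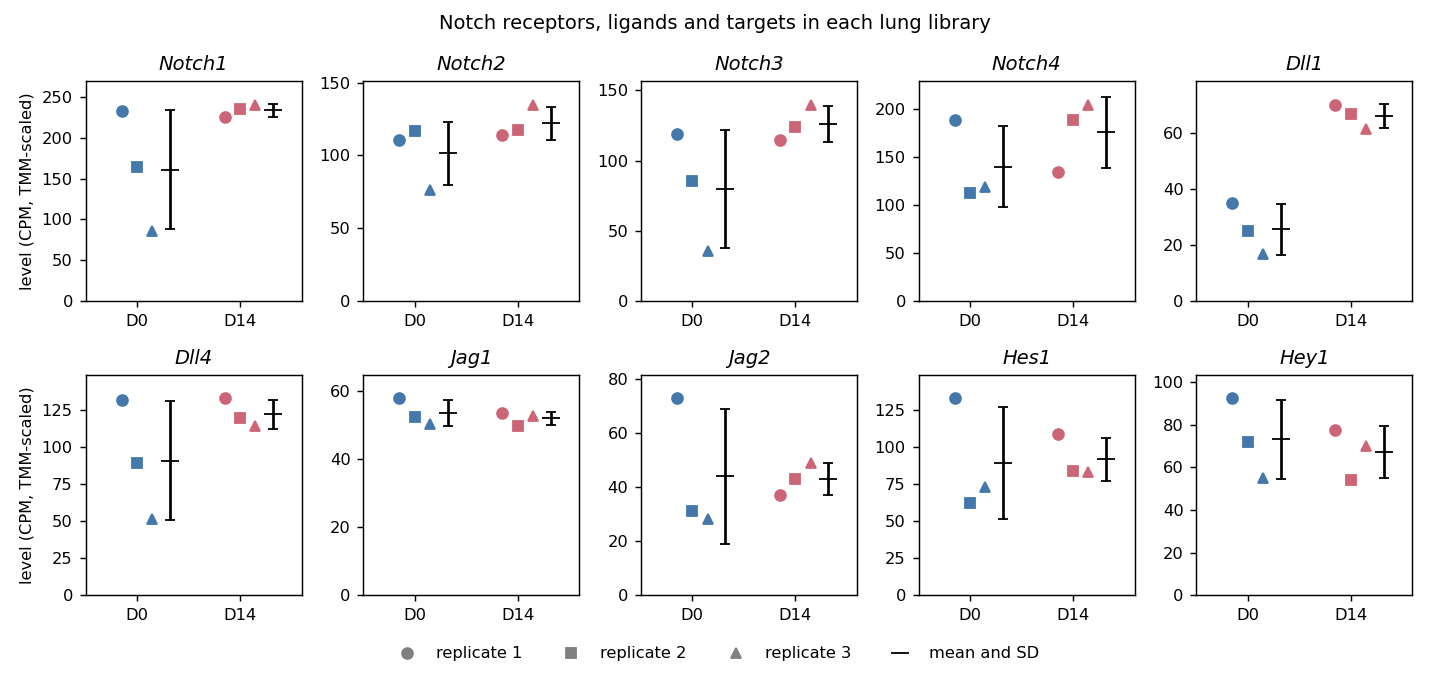
Level of each of the 10 Notch genes (vertical axis, CPM scaled by TMM) in the 3 D0 and 3 D14 libraries, with the symbol giving the replicate and the black bar the mean with its SD. Dll1 is the one gene whose D14 libraries, 61.4 to 70.1 CPM, all lie above its D0 libraries, 16.9 to 35.1 CPM.

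Among the ligands, Dll1, a Delta-type ligand, stood furthest from equal levels. It had 35.1, 25.2 and 16.9 CPM in D0 replicates 1, 2 and 3 and 70.1, 66.6 and 61.4 CPM in the D14 libraries. These values come from 241 to 604 counts at D0 and 958 to 1210 counts at D14. Every D14 library was above every D0 library, a pattern seen in this direction by 10.9% of all tested genes and by no other of the 10 genes. The means were 25.7 ± 9.11 CPM at D0 and 66.0 ± 4.37 CPM at D14 (SD, n = 3). The fitted difference was 1.36 on the log2 scale (SE 0.26), or 2.56-fold. By p-value Dll1 was 59th of the 17686 genes (unadjusted p = 0.000883), and its adjusted p was 0.265 in edgeR's quasi-likelihood test. DESeq2 gave a log2 fold change of 1.38 with an adjusted p of 0.000512, the smallest over 15 alternatives, the other extreme being 0.694 without D14 replicate 2. The fold change was above 0 in all 15 alternatives, between 1.13 without D0 replicate 3 and 1.66 without D0 replicate 1. Dll1 lies on chromosome 17 from 15367354 to 15376872 (GRCm38, minus strand) and overlaps 1 annotated gene on the other strand, A930024N18Rik, which has no line in the table.

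Dll4, the Delta-type ligand of arterial and sprouting endothelium, measured 132, 89.4 and 51.3 CPM at D0 against 133, 120 and 114 CPM at D14. D0 replicate 1 lay within the D14 range, so the groups overlap. The log2 fold change was 0.43 (SE 0.31; edgeR adjusted p = 0.547), and 0.15 without D0 replicate 3. Jag1, a Jagged-type ligand of vessels and airways, had the narrowest spread of the 10 genes, with 57.8, 52.3 and 50.4 CPM at D0 against 53.4, 49.7 and 52.6 CPM at D14. Its log2 fold change was −0.04 (SE 0.13), and leaving out D0 replicate 1 gave 0.021 and leaving out D0 replicate 3 gave −0.084. Jag2, the second Jagged-type ligand, measured 72.7, 31.1 and 28.0 CPM at D0 against 37.1, 43.0 and 48.9 CPM at D14. D0 replicate 1 was its highest library and D0 replicate 3 its lowest, with the D14 libraries between them. The log2 fold change of Jag2 was −0.03 (SE 0.36), but 0.55 (SE 0.18; edgeR adjusted p = 0.209) without D0 replicate 1. Leaving out D0 replicate 3 gave −0.27. The sign of the difference in Jag2 was not stable, being positive in 4 of 15 alternatives. Among these were limma-voom (0.092) and the replicate block (0.11), which keep all 6 libraries.

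Because D0 replicate 3 was low in many of these genes, Dll1 was also set against the other 9 genes within each library. This comparison was chosen after the values were seen and carries no test. The ratio of Dll1 to Dll4 CPM was 0.266, 0.282 and 0.330 in the D0 libraries and 0.528, 0.555 and 0.539 in the D14 libraries. The ratio varied little within a day, and its D14 values were 1.85-fold the D0 values by their means. Of all other tested genes, 0.696% had a ratio to Dll4 that lay higher in every D14 library in this way. Ratios of Dll1 lay higher in every D14 library for 8 of the 9 genes. For the same ratio over all tested genes the share was 0.532% against Notch1, 2.45% against Notch2, 1.03% against Notch4, 13.8% against Jag1, 2.47% against Jag2, 1.5% against Hes1 and 9.1% against Hey1. The exception was Notch3, where D0 replicate 3, at 0.473, lay above the lowest D14 library, at 0.439. Ratios that lay apart were not confined to Dll1. Of the 45 pairs of these Notch genes, 14 had ratios that did not overlap between days, 8 with Dll1 and 6 without it. Notch1 to Hey1 and Notch3 to Jag1 were among the latter. The pairs share genes, and no such count was made over pairs of all tested genes. These pair counts are therefore a description only.

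**Figure D2:**
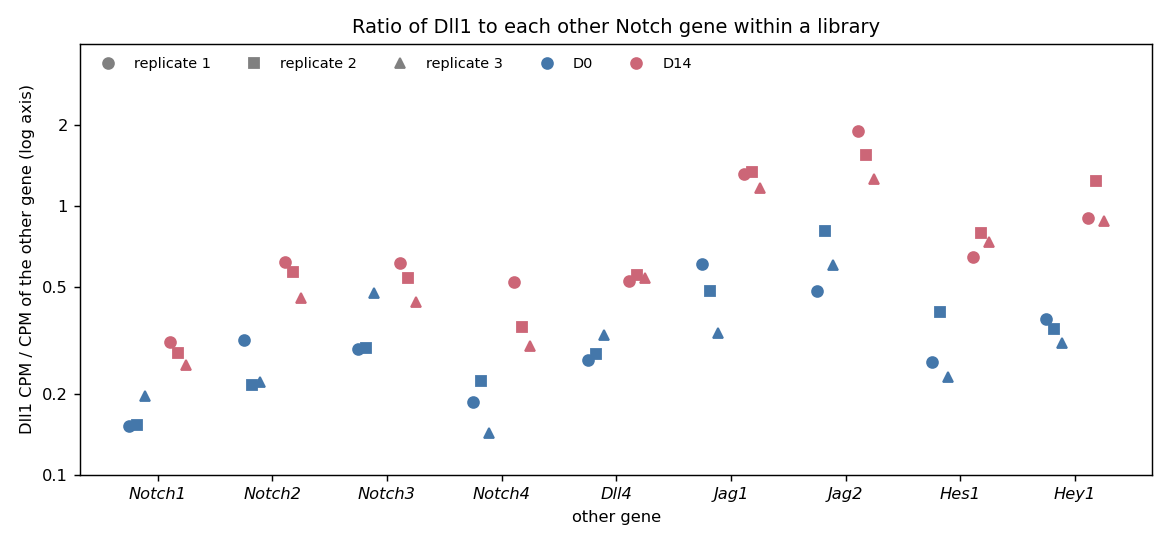
Ratio of Dll1 CPM to the CPM of each other Notch gene (log axis) in the 3 D0 libraries (blue) and the 3 D14 libraries (red), the symbol giving the replicate. The ratio to Dll4 sits at 0.266 to 0.330 at D0 and 0.528 to 0.555 at D14, and only the ratio to Notch3 overlaps between days.

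Levels of different genes can be set side by side only per length, here as CPM per kilobase of the longest coding transcript. On that scale Dll1 made up 14.1% to 15.2% of the summed level of the 4 ligands at D0 and 25.8% to 27.4% at D14. Dll4 held the largest share on both days, 41.6% to 51.5% at D0 and 45.7% to 49.4% at D14. Jag1 held 14.8% to 27.3% at D0 and 13.1% to 14.1% at D14, and Jag2 13.2% to 20.5% and 10.1% to 14.4%. These shares sum to a whole, so a larger share of Dll1 lowers the others without a lower level of theirs.

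**Figure D3:**
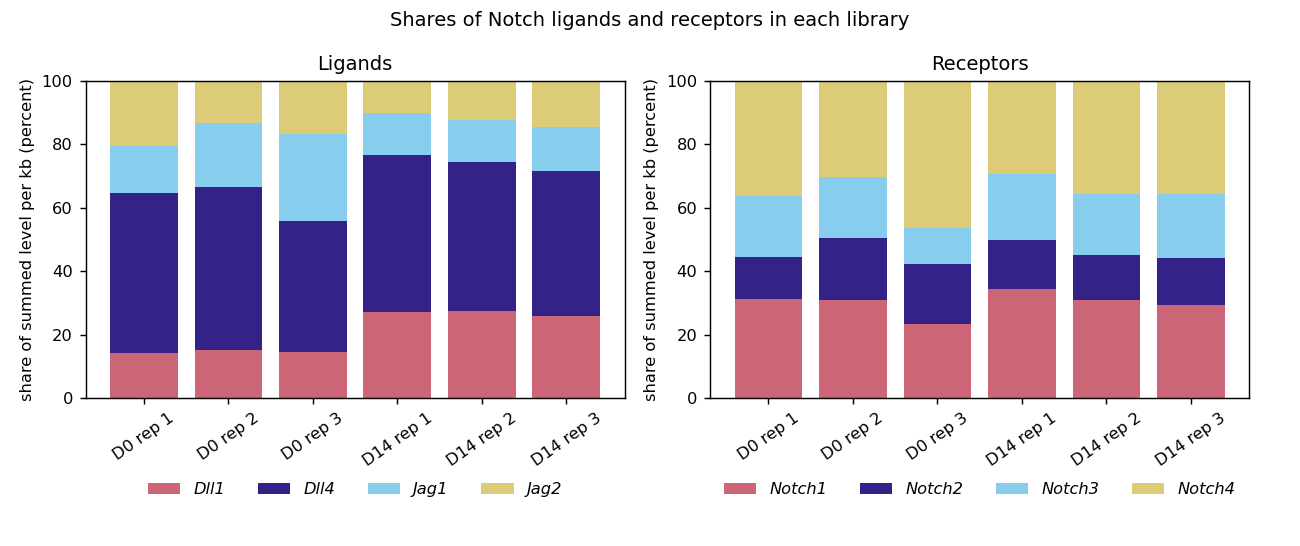
Share of each ligand (left) and each receptor (right) in the summed level per kilobase of its family, in percent (vertical axis), for each of the 6 libraries. The red Dll1 segment covers 14.1% to 15.2% of the ligand bar at D0 and 25.8% to 27.4% at D14, while the mean share of each receptor differs less between days. Among the receptors only the share of Notch3 had ranges apart, 11.51% to 18.96% at D0 and 19.29% to 20.65% at D14.

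The promoter of Dll1 is shown because Dll1 is the gene the comparison turns on. Those of Nrarp, Rbpjl and Hey2 are a selection from the pathway genes described further on. The windows are from RefSeq (GRCm38.p6), run 5′ to 3′ on the strand of the gene, and hold 250 bases before and 50 bases from an annotated start. RefSeq gives Dll1 a pair of starts: the first lies inside the gene as GENCODE places it, and the second lies just beyond its 5′ end. The letters TGGGAA, the core of the motif that RBPJ binds, and their reverse complement TTCCCA were searched on both strands and stand in capitals where found. The windows are chr17:15375774-15376073 (minus strand) for the first Dll1 start, chr17:15376883-15377182 (minus strand) for the second, chr2:25180508-25180807 (plus strand) for Nrarp, chr2:164402944-164403243 (plus strand) for Rbpjl and chr10:30842734-30843033 (minus strand) for Hey2.
Dll1, first start: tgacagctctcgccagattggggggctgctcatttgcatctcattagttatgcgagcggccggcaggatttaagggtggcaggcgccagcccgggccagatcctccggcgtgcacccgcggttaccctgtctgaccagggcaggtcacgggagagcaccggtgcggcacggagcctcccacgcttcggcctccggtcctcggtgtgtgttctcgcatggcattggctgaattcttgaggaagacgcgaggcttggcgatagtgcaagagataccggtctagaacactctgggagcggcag
Dll1, second start: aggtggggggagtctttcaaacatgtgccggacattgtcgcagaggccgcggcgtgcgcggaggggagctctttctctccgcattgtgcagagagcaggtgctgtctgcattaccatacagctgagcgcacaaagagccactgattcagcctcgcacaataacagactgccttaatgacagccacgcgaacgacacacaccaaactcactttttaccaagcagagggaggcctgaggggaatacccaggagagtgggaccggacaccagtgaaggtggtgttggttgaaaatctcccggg
Nrarp: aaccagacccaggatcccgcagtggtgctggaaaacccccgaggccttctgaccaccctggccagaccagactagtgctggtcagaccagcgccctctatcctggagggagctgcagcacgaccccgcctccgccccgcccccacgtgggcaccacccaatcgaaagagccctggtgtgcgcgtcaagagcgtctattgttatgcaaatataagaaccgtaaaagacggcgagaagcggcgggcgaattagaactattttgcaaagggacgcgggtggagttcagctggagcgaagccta
Rbpjl: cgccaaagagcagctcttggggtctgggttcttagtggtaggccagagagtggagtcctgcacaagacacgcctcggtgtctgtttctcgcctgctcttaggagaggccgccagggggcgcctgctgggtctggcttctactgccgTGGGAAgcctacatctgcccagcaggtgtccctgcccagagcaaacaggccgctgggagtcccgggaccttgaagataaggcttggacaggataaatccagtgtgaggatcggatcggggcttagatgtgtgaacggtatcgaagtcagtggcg
Hey2: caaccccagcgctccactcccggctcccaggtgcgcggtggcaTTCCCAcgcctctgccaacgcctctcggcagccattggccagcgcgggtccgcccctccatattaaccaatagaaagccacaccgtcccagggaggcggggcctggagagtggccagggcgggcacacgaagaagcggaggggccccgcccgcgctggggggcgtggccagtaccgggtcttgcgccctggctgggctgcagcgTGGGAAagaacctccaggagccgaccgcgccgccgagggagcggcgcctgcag
Hes1, Hey1 and Heyl are not among the windows searched. Windows of Rbpj and Nedd4, not printed here, also held the motif. The motif occurred in 0 of 9 windows of the 8 receptors and ligands, and in 17 of 60 windows of 44 further pathway genes. Of all 32851 windows of this length, 25.6% held it. Hey2 held it at −207 on the reverse strand and at −3 on the forward strand, counted from the start at 1, and Rbpjl at −104. A match is a description of the letters only, and its absence from Dll1 says nothing of binding elsewhere.

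Among the receptors, Notch1, which is broadly expressed and prominent in endothelium, measured 232, 164 and 86.4 CPM at D0 against 225, 235 and 240 CPM at D14. The D14 libraries agreed closely while the D0 libraries spanned more than the difference between days. The log2 fold change was 0.54 (SE 0.32; edgeR adjusted p = 0.486), and 0.24 without D0 replicate 3. Notch3, the receptor of pericytes and vascular smooth muscle, measured 119, 85.2 and 35.8 CPM at D0 against 115, 124 and 140 CPM at D14, with D0 replicate 1 inside the D14 range. Its log2 fold change was 0.65 (SE 0.38; edgeR adjusted p = 0.479), and 0.30 without D0 replicate 3. With all libraries this was the second highest of the 10 fold changes, after Dll1.

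Notch4, a receptor found mainly on endothelium, measured 188, 113 and 118 CPM at D0 against 134, 188 and 204 CPM at D14. Its D14 replicate 1 lay below D0 replicate 1, and the log2 fold change was 0.33 (SE 0.25; edgeR adjusted p = 0.569), and 0.22 without D0 replicate 3. Notch2, a receptor with roles in B cells, vessels and epithelium, measured 111, 117 and 76.6 CPM at D0 against 114, 118 and 135 CPM at D14. Its log2 fold change was 0.27 (SE 0.19; edgeR adjusted p = 0.541), and 0.10 without D0 replicate 3. When the trend of each library on transcript length was removed, an alternative added after the data were seen, that of Notch2 was −0.025 (SE 0.10). In the same fit Notch1 stood at 0.31 (SE 0.20), Notch3 at 0.47 (SE 0.27) and Dll1 at 1.35 (SE 0.22; edgeR adjusted p = 0.148). Over the 6 libraries the log2 CPM of Notch1 and Notch3 had a Pearson r of 0.995 and that of Notch1 and Dll4 one of 0.978, given as a description, since the points share the low D0 replicate 3.

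Neither of the 2 target genes had D0 and D14 ranges that lay apart. Hes1, a transcriptional repressor and general Notch target, measured 133, 62.3 and 73.1 CPM at D0 against 109, 83.7 and 83.6 CPM at D14. Its D14 libraries lay between the lowest and the highest D0 library. The log2 fold change was 0.04 (SE 0.29; edgeR adjusted p = 0.957), and its sign was negative in 4 of 15 alternatives, with −0.085 without D0 replicate 3. Hey1, a repressor that Notch turns on in arterial endothelium, measured 92.4, 72.1 and 54.9 CPM at D0 against 77.7, 54.0 and 70.1 CPM at D14. Its log2 fold change was −0.12 (SE 0.23; edgeR adjusted p = 0.824), with the opposite sign in 2 of 15 alternatives and −0.29 without D0 replicate 3. D0 replicate 1 was the highest library of both targets.

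**Figure D4:**
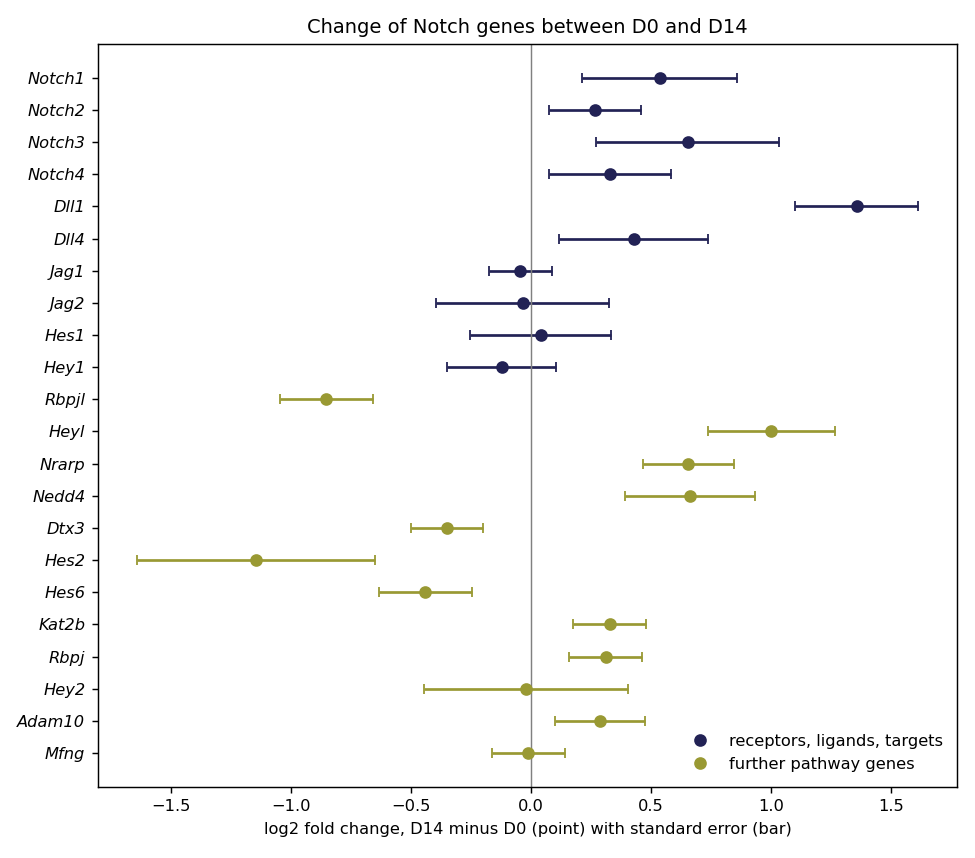
Log2 fold change, D14 minus D0 (horizontal axis), with its standard error for the 10 Notch genes (dark) and 12 further pathway genes (olive). Dll1 at 1.36 and Heyl at 1.00 lie furthest to the right, Hes2 at −1.14 and Rbpjl at −0.85 furthest to the left, and Hes1 and Hey1 lie near 0.

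Per kilobase of the longest coding transcript, Hes1 had the highest level of the 10 genes on both days, 61.0 ± 26 CPM per kilobase at D0 and 62.7 ± 9.89 at D14 (SD, n = 3). At D0 it was followed by Hey1 (30.2 ± 7.75), Dll4 (24.2 ± 10.8), Notch4 (21.2 ± 6.38), Notch1 (16.96 ± 7.69), Notch3 (9.99 ± 5.23), Notch2 (9.65 ± 2.06), Jag1 (9.54 ± 0.68), Jag2 (8.61 ± 4.89) and Dll1 (7.19 ± 2.54). Below Hes1, the libraries of each neighbouring pair in this order overlapped. At D14 Dll1 took the sixth place with 18.4 ± 1.22, after Hes1, Dll4 (32.6 ± 2.58), Hey1 (27.8 ± 5.003), Notch4 (26.7 ± 5.57) and Notch1 (24.6 ± 0.83), and before Notch3 (15.7 ± 1.6), Notch2 (11.6 ± 1.07), Jag1 (9.25 ± 0.34) and Jag2 (8.42 ± 1.16). The neighbours whose libraries did not overlap at D14 were Hes1 and Dll4, Notch1 and Dll1, Notch3 and Notch2, and Notch2 and Jag1. With merged exons as the length, Dll1 also held the tenth place at D0 and the sixth at D14. That sixth place was nearly shared with Notch3 (15.65 against 15.58 CPM per kilobase, with overlapping libraries). Notch1 and Dll1 then overlapped at D14, and Hes1 overlapped the next gene, Dll4, at D0. Hey1 changed places with Dll4 at D0 and with Notch4 at D14.

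The rest of the pathway was read from 56 further genes, of which 55 had a line and 50 were tested. None passed the threshold in edgeR, and 3 were higher and 2 lower at an unadjusted p under 0.05 (against 5.48% and 7.09% of all genes). DESeq2 called 2, against 1.24% of all genes. Their median log2 fold change was 0.07 beside −0.03 over all genes, with 31 of 50 above 0, against 46.9% of all genes. D0 and D14 ranges lay apart upward in 6 and downward in 3 of the 50 genes, against 10.9% and 10.7% of all tested genes.

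Of the further targets, 5 of 8 were tested. Heyl, a Hey family repressor and Notch target in smooth muscle and pericytes, measured 51.3, 28.8 and 30.3 CPM at D0 against 62.4, 67.4 and 91.5 CPM at D14. Each D14 library was above each D0 library, with a log2 fold change of 1.00 (SE 0.27; edgeR adjusted p = 0.347; DESeq2 adjusted p = 0.0404). Over 15 alternatives its fold change ran from 0.82 to 1.32, with adjusted p-values from 0.0404 to 0.725, and it was 0.88 without D0 replicate 3. Nrarp, a target that encodes a feedback inhibitor of the Notch complex, measured 63.1, 48.7 and 42.5 CPM at D0 against 88.4, 85.3 and 69.4 CPM at D14. Its ranges also lay apart, with a log2 fold change of 0.66 (SE 0.19; edgeR adjusted p = 0.350; 0.131 to 0.725 over the alternatives), and 0.54 without D0 replicate 3. The other tested targets did not share that direction: Hes2 stood at −1.14 (SE 0.50) on 10 to 54 counts a library, Hes6 at −0.44 (SE 0.19) and Hey2 at −0.02 (SE 0.42), with overlapping ranges. Without D0 replicate 3 they stood at −1.07, −0.29 and −0.34. Hes3, Hes5 and Hes7 were below the filter on low counts.

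**Figure D5:**
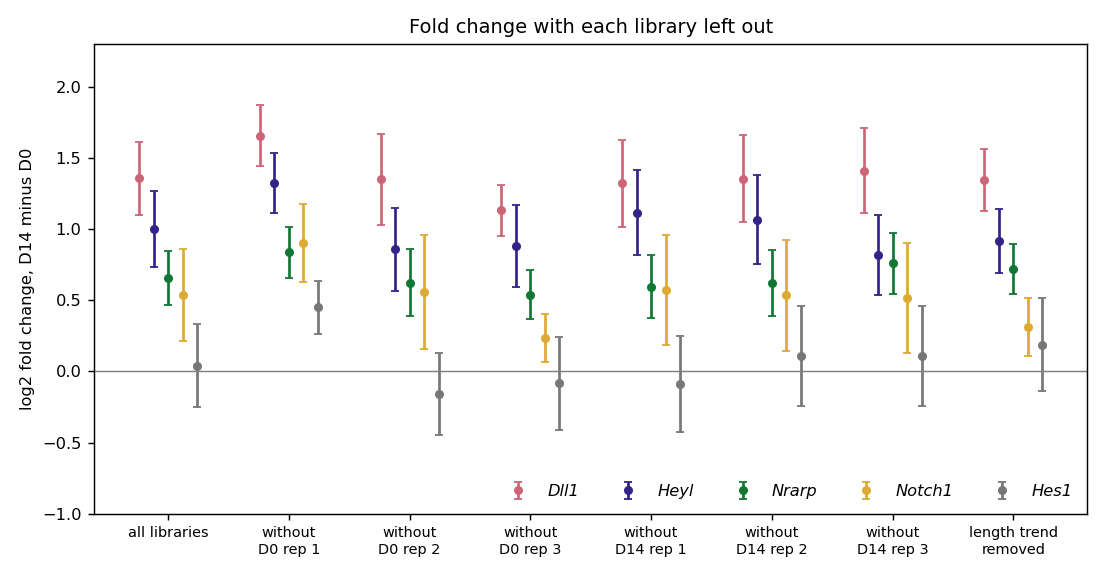
Log2 fold change, D14 minus D0 (vertical axis), with its standard error for Dll1, Heyl, Nrarp, Notch1 and Hes1 with all libraries, with each library left out, and with the length trend removed. Dll1 stays between 1.13 and 1.66 across these settings, while Hes1 changes sign.

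In the nuclear complex, 10 of 12 tested genes had a fold change above 0, against 46.9% of all tested genes, at a median of 0.22. In this list 3 genes had ranges apart upward and 2 downward, where all tested genes gave 10.9% and 10.7%. Rbpj, the DNA-binding partner of the receptor, measured 35.9, 35.9 and 28.1 CPM at D0 against 39.4, 41.3 and 43.3 CPM at D14. Every D14 library was above every D0 library, with a log2 fold change of 0.31 (SE 0.15; edgeR adjusted p = 0.427). It was 0.20 without D0 replicate 3 and 0.15 with the length trend removed. Kat2b, an acetyltransferase co-activator, stood at 0.33 (SE 0.15; edgeR adjusted p = 0.418), and at 0.24 without D0 replicate 3. Rbpjl, an RBPJ-like protein that does not bind the receptor, measured 82.9, 104 and 100 CPM at D0 against 65.3, 51.1 and 42.5 CPM at D14, a log2 fold change of −0.85 (SE 0.19; edgeR adjusted p = 0.326; DESeq2 adjusted p = 0.0315). Without D0 replicate 3 it was −0.81. Rbpjl overlaps Matn4 on the other strand, and strand handling is not given in the sources used here, so their reads cannot be told apart. Matn4 had 1599 to 1734 counts at D0 and 983 to 1468 at D14, a log2 fold change of −0.42 (SE 0.17; edgeR adjusted p = 0.389).

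Of the genes that process receptors and ligands, the 10 proteases and gamma-secretase subunits had a median log2 fold change of 0.07. No member had ranges apart, against 21.6% of all tested genes in either direction. Adam10, the protease of the first activating cut, measured 141, 90.6 and 126 CPM at D0 against 151, 137 and 150 CPM at D14, a log2 fold change of 0.29 (SE 0.19; edgeR adjusted p = 0.510), and 0.33 without D0 replicate 3. The 6 glycosyltransferases that modify the receptor's EGF repeats had a median of 0.02, with Mfng at −0.01 (SE 0.15). The 15 genes of ubiquitination and trafficking had a median of 0.07 and ran from −0.35 (Dtx3) to 0.92 (Neurl1b). Neurl1b, a Neuralized family ubiquitin ligase, measured 21.9, 13.1 and 1.69 CPM at D0 against 25.9, 20.98 and 22.6 CPM at D14. Its lowest library was D0 replicate 3, the groups overlap, and the log2 fold change of 0.92 had an SE of 0.69 (edgeR adjusted p = 0.563). Nedd4, a ubiquitin ligase, measured 226, 261 and 135 CPM at D0 against 256, 358 and 371 CPM at D14, a log2 fold change of 0.66 (SE 0.27; edgeR adjusted p = 0.387), and 0.43 without D0 replicate 3. Dtx3, a Deltex family ligase, had ranges apart downward, with 74.8 to 99.6 CPM at D0 and 65.8 to 68.9 CPM at D14 (log2 fold change −0.35, SE 0.15; edgeR adjusted p = 0.397), and a value of −0.23 without D0 replicate 3. Of the further ligands, Dll3 had at most 3 counts in a library, Dlk2 was below the filter with 2 to 19 counts, and Dlk1 has no line in the table. Dner, a ligand-like protein, had 0.51 to 2.18 CPM over the 6 libraries, and Egfl7, a secreted endothelial protein that can bind Notch, had 311 to 504 CPM.

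Bulk RNA cannot tell fewer cells of a type from less RNA per cell, and some markers of the cells that carry Notch genes also had higher sums at D14. The vessel-wide endothelial list had 10 of 10 genes in the table and 9 of 10 with a fold change above 0. Its summed level was 2781 to 5282 CPM at D0 and 5788 to 5850 CPM at D14, lowest in D0 replicate 3. The pericyte list, which itself holds Notch3, had 7 of 8 genes above 0 and summed to 233 to 426 CPM at D0 and 434 to 471 CPM at D14. The arterial list, which holds Dll4 and Hey1, had 5 of 9 genes above 0 and overlapping sums of 602 to 1341 and 1129 to 1286 CPM. The smooth muscle list also had overlapping sums, 372 to 760 CPM at D0 and 509 to 619 CPM at D14. No gene of these lists was at 0 in a library. Set against Cdh5, VE-cadherin of endothelium, Dll1 had ratios of 0.0328, 0.0379 and 0.0465 at D0 and 0.0651, 0.0647 and 0.0515 at D14, which do not overlap. The ratios of Dll1 to the endothelial genes Pecam1 and Kdr lay apart in the same direction. Of all other tested genes, 0.305% had a ratio to Cdh5 that was higher in every D14 library, 0.311% one to Pecam1 and 0.401% one to Kdr. Those of Heyl and of Nrarp to each of Cdh5, Pecam1 and Kdr overlapped between days. The ratio of Heyl to Cdh5 was highest in D0 replicate 3, at 0.0833, the library where Cdh5 was lowest. Its ratios to Pecam1 (0.0776) and Kdr (0.1296) in that library also reached into the D14 range. In D0 replicates 1 and 2 the ratios of Heyl to Cdh5, Pecam1 and Kdr lay below every D14 library. Heyl was not set against genes of pericytes or smooth muscle, so these ratios do not speak to those cells. The ciliated cell list summed to 105 to 153 CPM at D0 and 128 to 159 CPM at D14, and the B cell list to 134 to 223 and 82.8 to 125 CPM. For the club cell list the sums were 9030 to 18754 CPM at D0 and 18144 to 25388 CPM at D14, which overlap. The part of these cell types in the Notch values was not tested.

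For the most abundant receptor, ligand and target per kilobase, the genes of most similar profile over the 6 libraries were looked up among 11116 others with a mean of at least 10 CPM. They were Zbtb1 (Pearson r 0.995), Ints14 (0.988) and Grb10 (0.986) for Notch4, and Adam19 (0.999), Slc35d1 (0.998) and Arhgef7 (0.997) for Dll4. Hes1 was most like 6330403L08Rik (0.986), Cmtm3 (0.974) and Zscan29 (0.973). With 6 libraries and this many genes, such values describe a likeness and nothing more.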

How the data were processed

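The labels' protocols describe TRIzol extraction of total RNA and libraries from an NEB kit. The submitters' processing notes list CASAVA 1.8, HISAT2 2.1.0, StringTie 1.3.4b, edgeR and the build GRCm38 without saying which did what. How reads were counted, the strand setting and the annotation release are not stated there. The deposited table gives estimated counts by gene symbol with no correction for depth, 1 column a library, and these were rounded, though the values used were already whole. Of 29757 lines, 4 were left out (empty or displaced, Tnf and Tgfb1 among them). Where symbols recur (50 lines), the most abundant line carried the symbol.

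Tests used edgeR 4.0.16 in R 4.3.3 on all 6 libraries: TMM factors, the default filter, a two-sided quasi-likelihood F test with robust estimation, adjusted over all tested genes. The standard error is the log2 fold change divided by the square root of F. Alternatives were DESeq2 1.42.0, voom of limma 3.58.1, other scaling, other filters, no robust estimation, a block on replicate numbers, each library omitted in turn, and, added after the data were seen, a lowess trend on transcript length (span 0.3) removed as an offset. Lengths and positions come from GENCODE for GRCm38. The test was also tested on simulated counts, drawn without the length trend of D0 replicate 3. It called 37% of 108 genes simulated with a log2 fold change of 1 in size, and 93.4% of 91 genes with 2. A gene that did not pass the threshold is therefore not shown to be unchanged.

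Named were the 10 Notch genes, the 8 further pathway genes with the smallest p, and Rbpj, Nrarp, Heyl, Hey2, Adam10 and Mfng. Other genes, such as Neurl1b, ligands with few counts and overlapping genes, were named after their values were seen. The Notch genes and lists were chosen with earlier results of these data known. Log2 CPM used a prior count of 2.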

Additional observations from a re-analysis of the deposited data

How the results depend on the processing

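Over 15 alternatives, the count of called genes in the whole table moved from 6 to 26 with no low count filter, 247 with DESeq2, 0 with the replicate block and 18 with the length trend removed, and to 0 to 22 with 1 library left out (3, 1 and 22 without D0 replicates 1, 2 and 3, and 0 without any D14 library). The count among the 10 Notch genes was 0 in all settings except DESeq2, with 1 (Dll1), and among the further pathway genes 0 except DESeq2, with 2 (Heyl higher, Rbpjl lower). For 22 named genes, 302 of 330 fold changes kept their direction and their side of the threshold, and 3 passed it, all with DESeq2. Another 25 changed sign, and the cause was not tested. With the length trend removed, Notch2 was −0.025, Hey2 0.046 and Mfng 0.12. Jag2 was 0.092 with limma-voom and 0.11 with the replicate block, and Hey2 was 0.079 with each of them and 0.0012 with DESeq2. Hes1 was −0.042 without scaling factors, and Mfng 0.0038 with RLE factors, 0.0045 without the filter and 0.011 with DESeq2. With 1 library left out, Jag1 ran from −0.084 to 0.021, Jag2 from −0.27 to 0.55, Hes1 from −0.16 to 0.45, Hey1 from −0.29 to 0.089, Hey2 from −0.34 to 0.44 and Mfng from −0.072 to 0.12. Whether replicate numbers pair the libraries could not be settled. Deviations from the day means correlated at 0.119, −0.055 and −0.097 for the same numbers. Of the 3 D0 libraries, 1 correlated best with the D14 library of its number. With 3 libraries a day, such values cannot exclude pairing. In the fit with the replicate block Dll1 stood at 1.42 (adjusted p = 0.298, edgeR).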
